A study of Homo sapiens with 9 samples.

Results

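The 10 genes described here encode proteins of the neuronal cytoskeleton and synapse and a pair of neuronal repressors: the neurofilament genes NEFH, NEFM, NEFL and INA, the complexin genes CPLX1 and CPLX2, the SCRATCH genes SCRT1 and SCRT2, and SNAP25 and STMN2. They are 10 of the 57163 genes of the table and were found by matching gene IDs to symbols, and all 10 were matched. They were chosen by their own values in these 9 libraries, since some had nearly no counts in the control library and many in single TF libraries, so these differences are given as a description and without a test.

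The cells were 293T, a transformed line of human embryonic kidney, and RNA was taken 48 h after they received a plasmid with the coding sequence of 1 of 8 human TFs behind an EF1A promoter, with EGFP on the same plasmid. NRF1, E2F4, EGR1 and ZBTB7A were picked by the study as CLB_TFs, TFs with many binding sites in promoters of conserved lncRNAs, and HOXA11, RORA, TFCP2 and NKX2-8 served as control TFs without that preference. For the control cells the methods describe an empty plasmid, and the sample label reads blank. Each condition is 1 library of the same line, so a TF library and the control library can be compared only as those libraries, and TFs stand in for replicates of a class.

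Neurofilaments are the intermediate filaments of axons, built from light, medium and heavy subunits and, in the central nervous system, alpha-internexin, and they set the calibre of large axons. Complexins bind the SNARE complex, in which SNAP25 is one of the parts from the plasma membrane, and tune the release of synaptic vesicles, while STMN2 binds tubulin in growing axons. SCRT1 and SCRT2 are zinc finger repressors of the Snail superfamily, expressed in newborn neurons, and in non-neuronal cells many neuronal genes are held down by the repressor REST.

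Libraries held 14177970 to 18915400 counts in all. Genes with at least 1 count numbered 26166 with NRF1, 26296 with EGR1 and 24593 with NKX2-8, and 23344 to 23712 in the other 6 libraries. The control library stood apart for TFCP2 itself. It held 9812 counts of that gene, while the TFCP2 library held 264495 and the 7 TF libraries without a TFCP2 insert held 653 to 703. Where these counts of the control library come from, and whether it holds reads of the TFCP2 plasmid, was not tested. Each ratio over the control library is therefore a ratio over a library labelled blank that stands apart in this way, and values against the control TF libraries are given beside it for the genes that rose. The summed level of 5 markers of an epithelial kidney line (KRT8, KRT18, VIM, CDH2 and EPCAM) was 1168 to 1446 CPM (counts scaled to a common library size) over the 9 libraries. Of other cell types, 5 glial markers summed to 11.8 to 17.3 CPM. S100B and SOX10 were below 1 CPM throughout, while GFAP, MBP and OLIG2 each reached it in at least 1 library. The 5 fibroblast markers summed to 27.3 to 43.4 CPM. DCN and THY1 were below 1 CPM throughout, while COL1A1, COL3A1 and PDGFRA each reached it in at least 1 library. All 5 leukocyte markers were below 1 CPM in each library. None of the markers but EPCAM, with a ratio of 2.19 (1.5 to 3.23) in the NRF1 library, passed the call used below.

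Of the 10 genes, 5 were nearly silent in the control library, with 3 counts or fewer (NEFH, CPLX2, SCRT1, SCRT2 and SNAP25), and these include the 4 that rose in any TF library. The other 5 had 22 counts or more there and neither rose nor fell. A gene was said to have risen or fallen, or to be called, when its log2FC over the control was at least 2-fold either way and its higher level was no less than 1 CPM. The log2FC was computed from CPM after TMM scaling with a prior count of 2, which shrinks low genes, whereas ratios are of CPM without it, with a 95% exact conditional binomial interval that covers counting error only. In bulk RNA a larger share of cells with a transcript and more of it per cell cannot be told apart.

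Among the CLB_TFs, the NRF1 library had 3 genes that rose, NEFH, CPLX2 and SNAP25, of 8 that reached 1 CPM, where 8.24% of all genes at that level rose. The E2F4 library had 2 of 7, NEFH and SCRT1, against 3.68% of all genes. The EGR1 library had the largest number, 4 of 9 against 2.5%, namely NEFH, CPLX2, SCRT1 and SNAP25. In the ZBTB7A library CPLX2 and SCRT1 rose, 2 of 7 against 1.92%. At this minimum of 1 CPM the 4 libraries thus shared no gene that rose in all of them. That depends on the minimum, since at 0.5 CPM NEFH, CPLX2 and SCRT1 rose in all 4.

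Among the control TFs, NEFH alone rose in the HOXA11 library, 1 of 6 genes against 1.17% of all genes. In the NKX2-8 library NEFH, SCRT1 and SNAP25 rose, 3 of 8 against 2.83%. None of 5 rose with RORA, where 0.522% of all genes did, and none of 5 with TFCP2, where 0.491% did. The part of the TFCP2 counts of the control library in the TFCP2 values was not tested. Since the genes were chosen on these differences, nothing is read from these counts beside the background.

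In all, 15 of the 80 pairs of gene and TF library rose and none fell. Falls were rare over all genes too, with 0.235% of genes at 1 CPM for NRF1, 0.261% with E2F4, 0.28% with EGR1, 0.439% with ZBTB7A, 0.34% with HOXA11, 0.393% with RORA, 0.185% with TFCP2 and 0.879% with NKX2-8. The median log2FC of the 10 genes was 1.24 with NRF1, 0.72 with E2F4, 0.50 with EGR1 and 0.75 with ZBTB7A, then 0.13 with HOXA11, 0.07 with RORA, -0.05 with TFCP2 and 0.70 with NKX2-8, while the median of all genes at 1 CPM lay between -0.04 and 0. The libraries with 3 or 4 of the genes raised (NRF1, EGR1 and NKX2-8) are those with the most genes detected, and the part of this in the result was not tested.

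**Figure D1:**
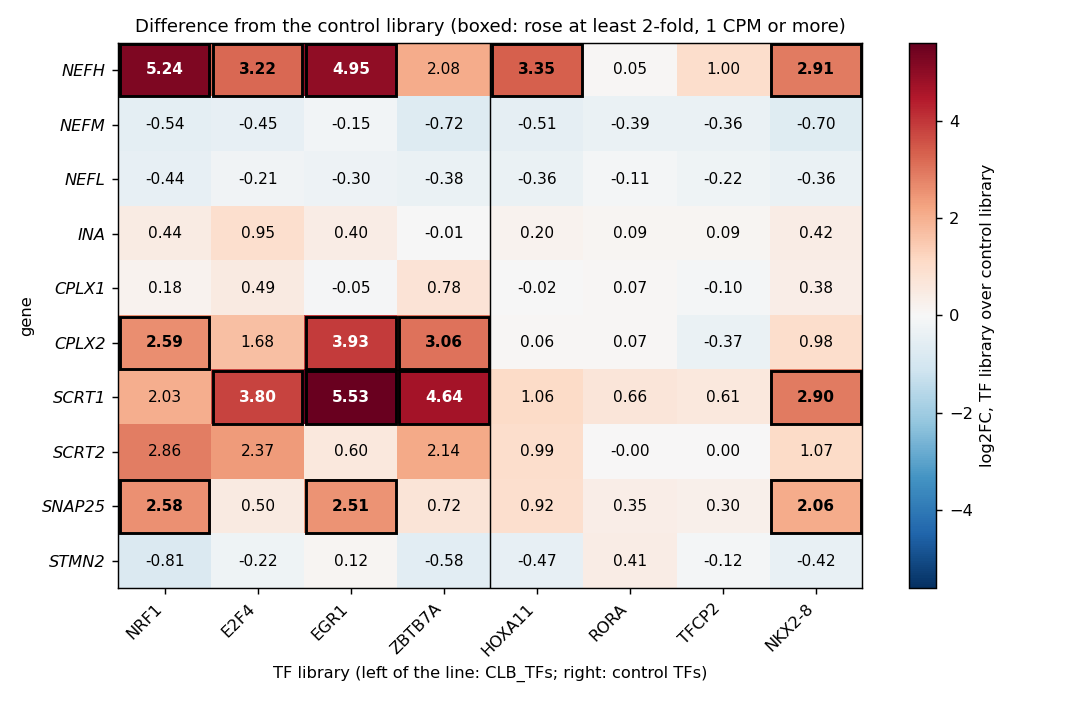
log2FC of each of the 10 genes (rows) in each TF library over the control library (columns, CLB_TFs left of the line and control TFs right of it), 1 library each, with the value printed in each square and calls boxed. The 15 boxes lie in the rows of NEFH, CPLX2, SCRT1 and SNAP25, and the RORA and TFCP2 columns hold none.

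The 5 nearly silent genes can be set beside other protein-coding genes that started as low. Protein-coding genes with at most 3 counts in the control library numbered 3760, without those that had no count in any library. Of these 3.96% reached 1 CPM in the NRF1 library, where 3 of the 5 did. The shares were 1.17% with E2F4 (2 of the 5), 1.38% with EGR1 (4 of the 5) and 0.585% with ZBTB7A (2 of the 5). They were 0.186% with HOXA11 (1 of the 5), 0.0532% with RORA and 0.0532% with TFCP2 (0 of the 5 in both) and 0.771% with NKX2-8 (3 of the 5). Reaching 1 CPM from so few counts was thus rare in general, and the 5 were picked because some of them did so.

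Promoter sequences of RefSeq (GRCh38.p14, 250 bases before to 50 after the start site) were at hand for 3 of the 10 genes. These were CPLX2 and SCRT2 from the nearly silent set and INA from the other genes. They are shown because TFs with known binding letters were added to the cells, here as the bases upstream of the start site, written 5′ to 3′ on the strand of the gene. Capitals mark the single stretch that matched a searched motif.
CPLX2, chr5:175796283-175796532, plus strand: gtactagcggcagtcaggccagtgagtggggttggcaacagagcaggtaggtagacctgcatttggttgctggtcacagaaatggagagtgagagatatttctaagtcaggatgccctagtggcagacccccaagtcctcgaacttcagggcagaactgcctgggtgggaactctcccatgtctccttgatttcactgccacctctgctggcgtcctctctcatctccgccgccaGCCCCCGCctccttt
SCRT2, chr20:675803-676052, minus strand: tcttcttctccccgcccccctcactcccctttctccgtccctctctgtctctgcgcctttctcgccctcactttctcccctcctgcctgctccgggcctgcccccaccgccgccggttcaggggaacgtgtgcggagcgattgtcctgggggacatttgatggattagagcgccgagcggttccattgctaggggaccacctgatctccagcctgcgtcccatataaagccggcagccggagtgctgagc
INA, chr10:103276888-103277137, plus strand: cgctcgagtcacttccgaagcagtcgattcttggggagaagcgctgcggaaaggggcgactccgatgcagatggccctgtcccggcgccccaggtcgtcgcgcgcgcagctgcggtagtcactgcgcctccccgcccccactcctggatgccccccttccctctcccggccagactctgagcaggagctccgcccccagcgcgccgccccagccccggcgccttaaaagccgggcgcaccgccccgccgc
Exact matches were sought on both strands for EGR1 (GCGTGGGCG or GCGGGGGCG, in 5.77% of 35116 promoters of the same length), the NRF1 core (GCATGCGC, 3.05%), E2F (TTTGGCGC, TTTCGCGC or TTTCCCGC, 2.74%) and the left part of the REST site (TCAGCACC, 1.67%). None of these was found in the 3 windows of 300 bases. The first 8 letters of the EGR1 motif (GCGTGGGC or GCGGGGGC), a search added after the promoters were seen, are in 10.4% of promoters and matched CPLX2 on the minus strand, read as GCCCCCGC on the strand shown, starting at -15 from the start site. The windows also differed in composition. INA had 71.3% G and C with 35 CpG and SCRT2 66.7% with 26, whereas CPLX2 had 59% with 8, beside medians of 58.7% and 14 over all promoters.

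NEFH, the heavy neurofilament subunit (ENSG00000100285, chromosome 22 of GRCh37 from 29876219 to 29887379, plus strand), rose in the most TF libraries, 5 of 8. It had 103, 27, 85 and 9 counts in the NRF1, E2F4, EGR1 and ZBTB7A libraries, 28, 1, 4 and 18 counts in the HOXA11, RORA, TFCP2 and NKX2-8 libraries, and 1 count in the control library. The levels were 6.49 CPM with NRF1 and 5.31 CPM with EGR1, against 0.0544 CPM in the control library. These libraries stood above all others, while HOXA11, E2F4 and NKX2-8 lay together at 1.66, 1.51 and 1.19 CPM.

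The ratio over the control library was 119 with NRF1 (21 to 4764) and 97.6 with EGR1 (17.1 to 3901). It was 27.8 with E2F4 (4.58 to 1138), 30.6 with HOXA11 (5.06 to 1252) and 22 with NKX2-8 (3.47 to 915). Because the control library had a single count, these intervals reach over 2 orders of magnitude, and the size of the rise is known only by its lower limits. In the order of levels, neighbours differed beyond counting error only between EGR1 and HOXA11, at a ratio of 3.19 (2.06 to 5.08), and NRF1 and EGR1 did not, at 1.22 (0.909 to 1.65).

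The control library was the lowest of the 9 for NEFH, and the choice of reference matters. Against the mean of the control TF libraries, which hold HOXA11 and NKX2-8, the log2FC of NEFH was 2.86 with NRF1 and 2.58 with EGR1, where it was 5.24 and 4.95 against the control library. With that reference NEFH no longer passed in the E2F4 library (0.85 in place of 3.22) or the NKX2-8 library (0.77 in place of 2.91, with the other 3 control TFs as reference). In the ZBTB7A library, where it was below 1 CPM, its sign turned, with -0.29 in place of 2.08.

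NEFM and NEFL, the medium and light subunits, were among the abundant transcripts of 293T cells, were highest in the control library and were called in no TF library. They lie side by side on chromosome 8 of GRCh37, NEFM (ENSG00000104722) from 24770525 to 24776611 on the plus strand and NEFL (ENSG00000277586) from 24808468 to 24814624 on the minus strand. NEFM had 5317, 6386, 7055 and 4298 counts in the NRF1, E2F4, EGR1 and ZBTB7A libraries, 5770, 6179, 6666 and 4523 counts in the HOXA11, RORA, TFCP2 and NKX2-8 libraries, and 8987 counts in the control library. Its ratio to the control library ran from 0.608 with ZBTB7A (0.586 to 0.63) to 0.902 with EGR1 (0.874 to 0.93), so that each TF library was below the control library by more than counting error.

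NEFL had 3966, 5258, 4408 and 3790 counts in the NRF1, E2F4, EGR1 and ZBTB7A libraries, 4439, 5224, 5084 and 3999 counts in the HOXA11, RORA, TFCP2 and NKX2-8 libraries, and 6248 counts in the control library. The ratios ran from 0.736 with NRF1 (0.707 to 0.766) to 0.929 with RORA (0.895 to 0.964). None of these differences reached a 2-fold fall. Against the mean of the control TF libraries both genes lost a common direction. NEFM was then above it with E2F4, EGR1, RORA and TFCP2, by at most 0.33 on the log2 scale. NEFL was above it with E2F4, RORA and TFCP2, by at most 0.21. For RORA and TFCP2 that mean was taken over the other control TF libraries.

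INA encodes alpha-internexin (ENSG00000148798, chromosome 10 of GRCh37 from 105036920 to 105050108, plus strand) and was highest with E2F4. Its counts were 759, 1221, 748 and 508 in the NRF1, E2F4, EGR1 and ZBTB7A libraries, 682, 620, 657 and 711 in the HOXA11, RORA, TFCP2 and NKX2-8 libraries, and 649 in the control library. The E2F4 library stood alone at 68.3 CPM, 1.94 times the control library at 35.3 CPM (1.76 to 2.13), just short of the 2-fold needed for a call. NRF1, NKX2-8 and EGR1 followed at 47.9, 47.2 and 46.7 CPM and did not differ from each other beyond counting error. From HOXA11 down to ZBTB7A at 35.1 CPM no neighbours differed beyond it either.

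Per kilobase of exon, NEFM and NEFL made up most neurofilament transcript in each library and NEFH remained minor even where it rose. NEFH was 1.14% of the summed level of the 4 genes with NRF1 and 0.779% with EGR1, against 0.00715% in the control library. NEFM was 47.3 to 55.9% in the TF libraries and 55.5% in the control library, NEFL 35.3 to 43.4% and 39.1%, and INA 6.83 to 12.4% and 5.44%. The summed level per kilobase was 0.693 (ZBTB7A) to 0.896 (EGR1) times that of the control library, lower in each TF library. The ratio of NEFM to NEFL per kilobase was 1.12 to 1.58 in the TF libraries, highest with EGR1, and 1.42 in the control library.

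Ranked per kilobase among 19818 protein-coding genes, NEFM was at 333 (EGR1) to 533 (NKX2-8) in the TF libraries and 322 in the control library, and NEFL at 500 (RORA) to 612 (NKX2-8) and 466. NEFH was at 10044 with NRF1 and 10240 with EGR1, and at 14622 in the control library. The name neuronal therefore covers both transcripts that are abundant and transcripts that are nearly absent in this kidney line.

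**Figure D2:**
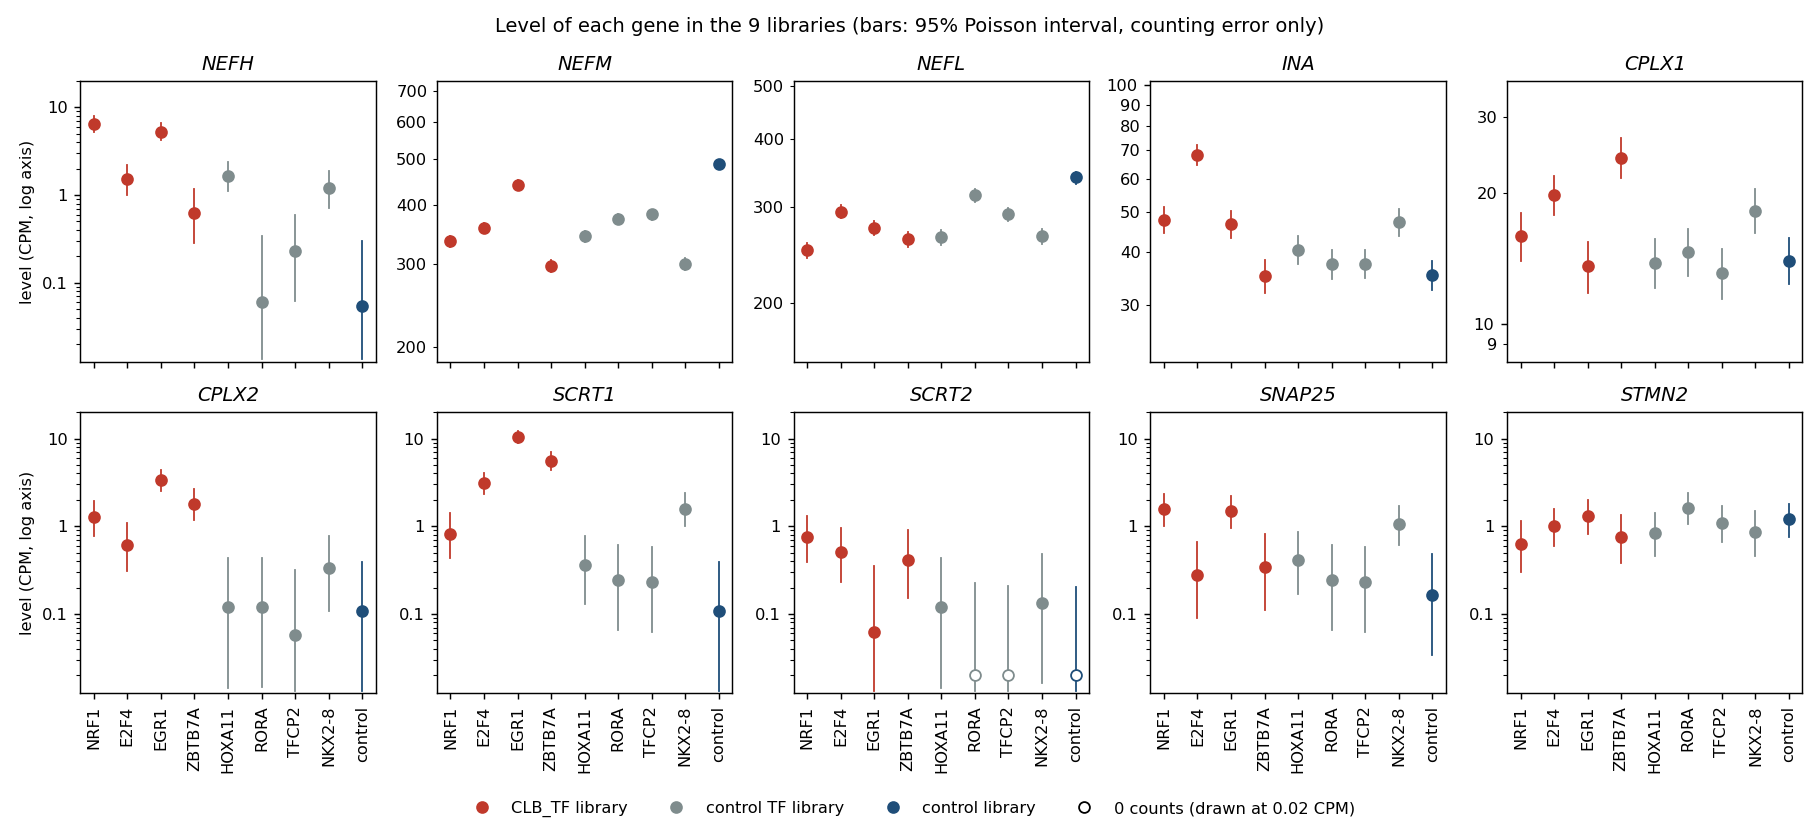
Level of each gene in CPM (log axis, with a scale of its own for the 4 genes with higher levels) in the 4 CLB_TF libraries (red), the 4 control TF libraries (grey) and the control library (blue), 1 point per library, with 95% Poisson bars for counting error and open circles for 0 counts. NEFM and NEFL are highest in the control library, at 489 and 340 CPM, whereas NEFH, SCRT1 and SNAP25 are lowest there.

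CPLX1, a synaptic complexin (ENSG00000168993, chromosome 4 of GRCh37 from 778745 to 819986, minus strand), was expressed in each library and changed little. It had 253, 353, 217 and 350 counts in the NRF1, E2F4, EGR1 and ZBTB7A libraries, 232, 243, 228 and 275 counts in the HOXA11, RORA, TFCP2 and NKX2-8 libraries, and 258 counts in the control library. ZBTB7A was highest, at 24.2 CPM against 14 CPM in the control library, a ratio of 1.72 (1.46 to 2.03), and E2F4 and NKX2-8 followed at 1.41 (1.2 to 1.66) and 1.3 (1.09 to 1.55). In the other 5 TF libraries the interval held 1.

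CPLX2 (ENSG00000145920, chromosome 5 of GRCh37 from 175223313 to 175311023, plus strand), its close relative, rose with NRF1, EGR1 and ZBTB7A and with no control TF. It had 20, 11, 54 and 26 counts in the NRF1, E2F4, EGR1 and ZBTB7A libraries, 2, 2, 1 and 5 counts in the HOXA11, RORA, TFCP2 and NKX2-8 libraries, and 2 counts in the control library. The 4 CLB_TF libraries are all above the 4 control TF libraries and the control library. Its level was 3.37 CPM with EGR1, 1.8 CPM with ZBTB7A and 1.26 CPM with NRF1, against 0.109 CPM in the control library.

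The ratios of CPLX2 were 31 with EGR1 (8.18 to 263), 16.5 with ZBTB7A (4.14 to 144) and 11.6 with NRF1 (2.82 to 102). E2F4 missed the level needed for a call, at 0.616 CPM and a ratio of 5.66 (1.24 to 52.6). Only EGR1 and ZBTB7A differed as neighbours beyond counting error, at 1.88 (1.16 to 3.12). Here the reference mattered less than for NEFH: against the mean of the control TF libraries the log2FC was 3.65 in place of 3.93 with EGR1, 2.78 in place of 3.06 with ZBTB7A and 2.31 in place of 2.59 with NRF1, and all 3 calls held.

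CPLX1 and CPLX2 shared part of their order. The ZBTB7A library was highest for CPLX1 and second highest for CPLX2, and the E2F4 library was above the control library for both. The E2F4 library was, however, second highest for CPLX1 and lowest of the CLB_TFs for CPLX2, and the EGR1 library, highest for CPLX2, was at 0.966 times the control library for CPLX1 (0.803 to 1.16). Per kilobase of exon CPLX2 was 7.81% of the summed complexin level with EGR1, 2.62% with NRF1, 2.47% with ZBTB7A and 1.05% with E2F4, and 0.149 to 0.615% with the control TFs, against 0.263% in the control library. CPLX1 remained the main complexin in each library.

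SNAP25, the SNARE that complexins act on together with its partners (ENSG00000132639, chromosome 20 of GRCh37 from 10199478 to 10288066, plus strand), rose with NRF1, EGR1 and NKX2-8. It had 25, 5, 24 and 5 counts in the NRF1, E2F4, EGR1 and ZBTB7A libraries, 7, 4, 4 and 16 counts in the HOXA11, RORA, TFCP2 and NKX2-8 libraries, and 3 counts in the control library. Its ratios were 9.67 with NRF1 (2.95 to 50), 9.19 with EGR1 (2.79 to 47.7) and 6.51 with NKX2-8 (1.86 to 34.9). The 3 libraries in which it rose, at 1.58, 1.5 and 1.06 CPM, are again the 3 with the most genes detected, and the part of this was not tested.

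No neighbours in the order of SNAP25 levels differed beyond counting error, and the control library was lowest. NKX2-8 passed the level of 1 CPM narrowly. Against the mean of the control TF libraries the calls with NRF1 and EGR1 held, with log2FC of 1.48 and 1.41 in place of 2.58 and 2.51. For NKX2-8 the reference was the other control TF libraries without its own, and the call held against these, at 1.50 in place of 2.06. With E2F4 and ZBTB7A SNAP25 was not called, with ratios of 1.72 (0.334 to 11.1) and 2.12 (0.412 to 13.6). SCRT1 rose in both of these libraries and with EGR1 and NKX2-8, in which SNAP25 rose. A link between SCRT1 and SNAP25 was not tested.

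SCRT1 (ENSG00000261678, chromosome 8 of GRCh37 from 145554228 to 145559943, minus strand) reached the highest level per kilobase of exon among the genes that were nearly silent in the control library, 2.78 CPM per kilobase with EGR1, before NEFH with NRF1 at 1.72. It had 13, 55, 168 and 81 counts in the NRF1, E2F4, EGR1 and ZBTB7A libraries, 6, 4, 4 and 24 counts in the HOXA11, RORA, TFCP2 and NKX2-8 libraries, and 2 counts in the control library. EGR1 led at 10.5 CPM, followed by ZBTB7A at 5.6, E2F4 at 3.08 and NKX2-8 at 1.59 CPM, against 0.109 CPM in the control library. EGR1, ZBTB7A and E2F4 each differed from the next in this order by more than counting error, with ratios of 1.87 (1.43 to 2.47), 1.82 (1.28 to 2.61) and 1.93 (1.18 to 3.27), whereas from NKX2-8 down no neighbours did.

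Over the control library the ratios of SCRT1 were 96.5 with EGR1 (26.3 to 803), 51.5 with ZBTB7A (13.8 to 432), 28.3 with E2F4 (7.47 to 240) and 14.6 with NKX2-8 (3.64 to 128). NRF1 was at 7.54 (1.71 to 68.8) but at 0.82 CPM, under the level for a call. The control library was again the lowest. Against the mean of the control TF libraries the log2FC was 3.87 in place of 5.53 with EGR1, 2.98 in place of 4.64 with ZBTB7A and 2.14 in place of 3.80 with E2F4. With NKX2-8, set against the other control TF libraries without its own, it was 2.11 in place of 2.90. All 4 calls held.

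SCRT2 (ENSG00000215397, chromosome 20 of GRCh37 from 642240 to 656823, minus strand) stayed under 1 CPM in each library and was therefore never called. It had 12, 9, 1 and 6 counts in the NRF1, E2F4, EGR1 and ZBTB7A libraries, 2, 0, 0 and 2 counts in the HOXA11, RORA, TFCP2 and NKX2-8 libraries, and 0 counts in the control library, where a count of 0 allows up to 3 counts. Set against 3 counts in the control library, it was at least 4.64-fold higher with NRF1, 3.09-fold with E2F4 and 2.54-fold with ZBTB7A. With the counting error of both libraries the lower limits of the ratio were 3.22, 2.03 and 1.5.

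The SCRATCH genes had different leading libraries. EGR1, which had the most SCRT1, had a single count of SCRT2, and NRF1, which had the most SCRT2, had the least SCRT1 of the CLB_TFs. Per kilobase of exon SCRT1 was 159 times SCRT2 with EGR1, a ratio that rests on that single count, 12.8 times with ZBTB7A, 5.79 times with E2F4 and 1.03 times with NRF1. Among the control TFs with SCRT2 counts it was 2.84 times with HOXA11 and 11.4 times with NKX2-8.

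STMN2 (ENSG00000104435, chromosome 8 of GRCh37 from 80523049 to 80578410, plus strand) was low and steady. It had 10, 18, 21 and 11 counts in the NRF1, E2F4, EGR1 and ZBTB7A libraries, 14, 27, 19 and 13 counts in the HOXA11, RORA, TFCP2 and NKX2-8 libraries, and 22 counts in the control library. Its level was 0.631 CPM (NRF1) to 1.63 CPM (RORA) in the TF libraries and 1.2 CPM in the control library. No ratio to the control library left an interval that holds 1, the widest departures being 0.527 with NRF1 (0.223 to 1.16) and 1.36 with RORA (0.748 to 2.51), and a change smaller than these intervals was not detectable at this depth.

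The position of the control library among the 9 was therefore uneven over the 10 genes. Of the 9 genes with a mean of at least 0.5 CPM, it was the lowest for 3 (NEFH, SCRT1 and SNAP25), where this held for 7.86% of 15469 genes at that level, and the highest for 2 (NEFM and NEFL), where this held for 12.1%. With a single control library, a difference made by the inserts and one particular to that library cannot be told apart, so values against the control TF libraries stand beside those against it.

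Near the threshold, the calls with the lowest levels were SNAP25 and NEFH with NKX2-8, at 1.06 and 1.19 CPM, and CPLX2 with NRF1, at 1.26 CPM. Just outside lay SCRT1, SCRT2 and CPLX2 at 0.82, 0.757 and 0.616 CPM, in the NRF1, NRF1 and E2F4 libraries, NEFH at 0.622 CPM with ZBTB7A, all with log2FC of 1.68 or more, and INA with E2F4 at a log2FC of 0.95.

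Between the classes, taking each TF as 1 value, CPLX2 was the single gene of the 8 that passed edgeR's filter on low counts whose CLB_TF and control TF libraries did not overlap. Over all 15012 genes that passed the filter, 6.79% had classes that did not overlap, and the class contrast called 0.04% as higher and 0% as lower in the CLB_TF libraries (edgeR quasi-likelihood test, Benjamini-Hochberg adjusted p under 0.05). For the 10 genes the levels and spread are given without a p, since they were chosen with these libraries in view, and NEFH, CPLX2 and SCRT1 passed the filter through the libraries in which they are high.

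CPLX2 had a mean level of 0.69 ± 0.94 log2 CPM in the CLB_TF libraries and -1.93 ± 0.57 in the control TF libraries (SD, n = 4 each), 0.616 to 3.37 CPM against 0.0572 to 0.332 CPM. SCRT1 had 1.88 ± 1.49 and -0.82 ± 1.08, and overlapped because NKX2-8 at 1.59 CPM lay above NRF1 at 0.82 CPM. NEFH had 1.36 ± 1.49 in the CLB_TF libraries and -0.69 ± 1.56 in the control TF libraries, where HOXA11 and NKX2-8 lay above ZBTB7A. The fitted log2FC of CLB_TF over control TF libraries was 3.47 for CPLX2, 3.08 for SCRT1 and 2.16 for NEFH.

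The means of the classes differed by 2.63 for CPLX2, 2.69 for SCRT1 and 2.05 for NEFH on the log2 scale, beside SDs within a class of 0.57 to 1.56. SCRT2 had -1.05 ± 0.97 log2 CPM in the CLB_TF libraries and -2.53 ± 0.59 in the control TF libraries, overlapping through the single count with EGR1, and SNAP25 had -0.24 ± 1.12 and -0.91 ± 0.82. The 5 remaining genes differed by -0.22 (STMN2) to 0.27 (CPLX1) in mean log2 CPM, with NEFM at 8.47 ± 0.24 and 8.44 ± 0.16, NEFL at 8.08 ± 0.10 and 8.15 ± 0.12 and INA at 5.59 ± 0.39 and 5.34 ± 0.16.

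**Figure D3:**
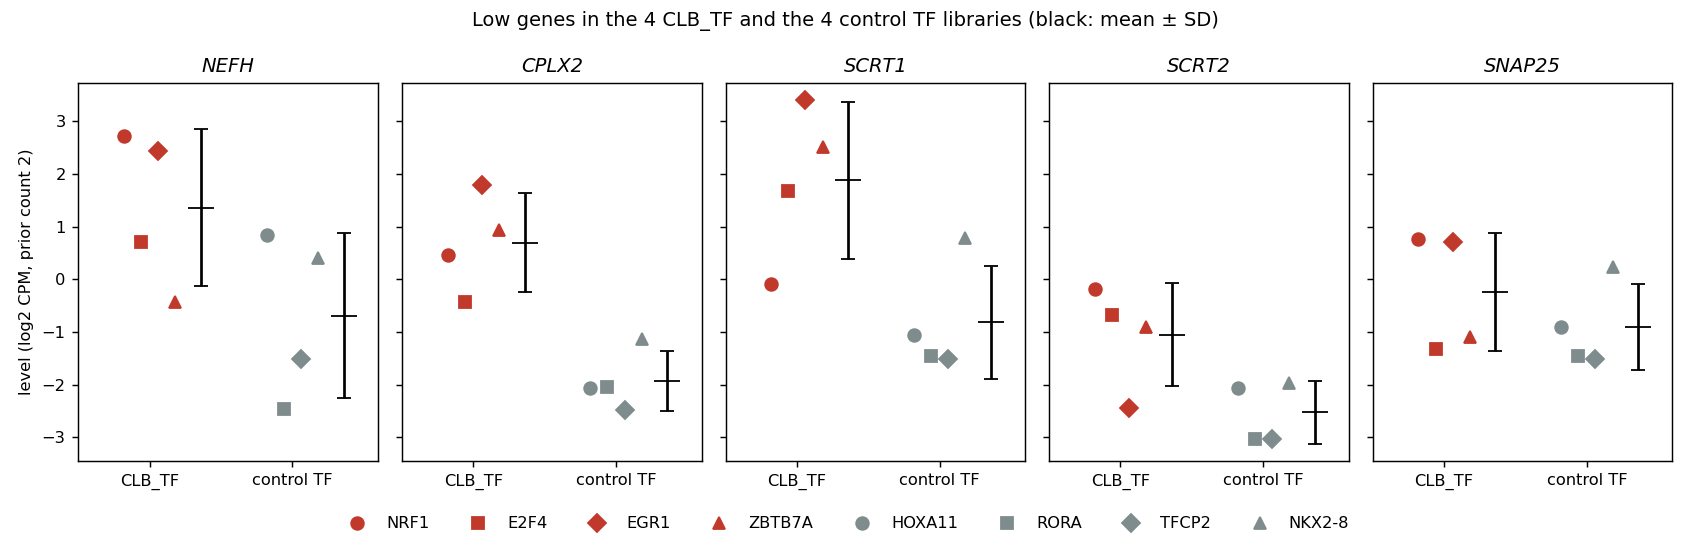
Level in log2 CPM (prior count 2) of the 5 nearly silent genes, with the 4 CLB_TF libraries (red) left of the 4 control TF libraries (grey) in each panel, 1 symbol per TF, and black bars for mean ± SD. Only in the CPLX2 panel do the red and grey symbols leave a gap, with E2F4 lowest of the red at 0.616 CPM and NKX2-8 highest of the grey at 0.332 CPM.

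Genes of wider neuronal lists, without these 10, were counted in the same way. Of 24 genes of the axonal cytoskeleton, 42 of SNAREs and vesicle release and 29 neuronal TFs and RNA-binding proteins, all 95 were matched, and 66 to 70 reached 1 CPM. Together 12 of 70 rose with NRF1, where 8.24% of all genes rose, 10 of 69 with E2F4 (3.68%), 4 of 69 with EGR1 (2.5%) and 4 of 68 with ZBTB7A (1.92%). With the control TFs 3 of 67 rose for HOXA11 (1.17%), 5 of 69 for NKX2-8 (2.83%) and 0 of 66 for RORA (0.522%) and for TFCP2 (0.491%), where such shares leave less than 1 gene of 66. The lists hold genes that are not particular to neurons, among them VIM, used above as a kidney line marker, and SNAI1 and SNAI3. A count without SNAI1 and SNAI3 alone was added after their values were seen. In it 10 of 68 rose with NRF1, 8 of 67 with E2F4, 3 of 67 with EGR1 and 3 of 66 with ZBTB7A. With the control TFs 1 of 65 rose for HOXA11 and 4 of 67 for NKX2-8. No difference between the listed genes and all genes was tested. None of the listed genes fell in any TF library. Over 73 genes their median log2FC was 0.13, 0.15, 0.07 and 0.06 in the NRF1, E2F4, EGR1 and ZBTB7A libraries and 0.03 to 0.09 in the control TF libraries, with all genes between -0.03 and 0.

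Of the SNARE and vesicle list 6 of 34 rose with NRF1, 5 of 33 with E2F4, 3 of 33 with EGR1, 2 of 32 with ZBTB7A and 4 of 33 with NKX2-8, beside 8.24%, 3.68%, 2.5%, 1.92% and 2.83% of all genes in these libraries. With HOXA11, RORA and TFCP2 0 of 31 rose, beside 1.17%, 0.522% and 0.491% of all genes. SYT7, a calcium sensor of vesicle fusion, had 82.7 CPM with E2F4 against 13.8 CPM in the control library, a ratio of 6.01 (5.26 to 6.9), and 12 to 24.8 CPM in the other TF libraries. RIMS1, a scaffold of the active zone, was also highest with E2F4, with 87 counts against 8 in the control library (11.2, 5.44 to 26.8), and rose with EGR1 and ZBTB7A at 3.3 (1.43 to 8.54) and 2.54 (1.03 to 6.86). SV2C, a vesicle glycoprotein, had 58 counts with NRF1 and 25 with E2F4 against 5 in the control library, ratios of 13.5 (5.45 to 43) and 5.15 (1.94 to 17.2). RIMS4, named after its value was seen, had 4276 counts with E2F4 against 1176 in the control library, a log2FC of 1.90. The E2F4 library, in which SNAP25 and CPLX2 were not called, was thus highest for SYT7 and RIMS1. SYN1, a synapsin on vesicles and also named after its values were seen, rose in 4 libraries, with 106, 57 and 67 counts with NRF1, E2F4 and EGR1 and 57 with NKX2-8 against 27 in the control library.

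Of the axonal cytoskeleton list 3 of 20 rose with NRF1 (DPYSL3, MAP2 and GAP43), 1 of 20 with E2F4 (SPTBN4), 1 of 21 with HOXA11 (TUBB3) and 0 of 20 in the other 5 TF libraries, beside 8.24% of all genes with NRF1, 3.68% with E2F4 and 1.17% with HOXA11. DPYSL3, a protein of growth cones, had 23.6 CPM with NRF1 against 5.98 CPM in the control library (3.94, 3.18 to 4.92), and MAP2, a microtubule protein of dendrites, 4.04 CPM against 1.41 (2.85, 1.78 to 4.69). SPTBN4, a spectrin of the axon initial segment, had 19.1 CPM with E2F4 against 6.25 CPM (3.06, 2.47 to 3.82). None of these 3 rose in another TF library. GAP43 with NRF1 had 175 counts against 93 in the control library and TUBB3 with HOXA11 17 counts against 4, both named after their values were seen.

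Among neuronal TFs and RNA-binding proteins 3 of 16 rose with NRF1, 4 of 16 with E2F4, 1 of 16 with EGR1, 2 of 16 with ZBTB7A, 2 of 15 with HOXA11 and 1 of 16 with NKX2-8, beside 8.24%, 3.68%, 2.5%, 1.92%, 1.17% and 2.83% of all genes. With RORA and TFCP2 0 of 15 rose, beside 0.522% and 0.491% of all genes. INSM2, a zinc finger TF of neuroendocrine cells, had 51, 49 and 23 counts with NRF1, E2F4 and ZBTB7A against 3 in the control library, ratios of 19.7 (6.38 to 98.8), 16.8 (5.43 to 84.3) and 9.74 (2.94 to 50.7). RBFOX3, which encodes the neuronal nuclear marker NeuN and was named after its value was seen, rose with E2F4, with 255 counts against 114. The Snail genes SNAI1 and SNAI3 are relatives of SCRT1 and SCRT2 and not particular to neurons, SNAI1 being known for epithelial to mesenchymal transition, and had 21 counts each in the control library. SNAI3 had 59, 50 and 51 counts with NRF1, E2F4 and ZBTB7A and 63 and 70 with HOXA11 and NKX2-8, and rose in all 5, whereas with EGR1, where SCRT1 was highest, it had 15. SNAI1 had 54, 48 and 58 counts with NRF1, E2F4 and EGR1 and 75 with HOXA11, the libraries in which it rose.

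In the class contrast none of 71 listed genes tested passed (edgeR quasi-likelihood test, adjusted over all genes). In the same test 12 had an unadjusted p under 0.05 as higher and 2 as lower in the CLB_TF libraries. The share of all genes at that unadjusted p was not counted, so no excess is read from these counts. DESeq2 called 1 listed gene, INSM2, which edgeR also called once the EGR1 library was left out. Without the filter on low counts edgeR called 12 of 93 listed genes, and 795 of 35115 over all genes.

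**Figure D4:**
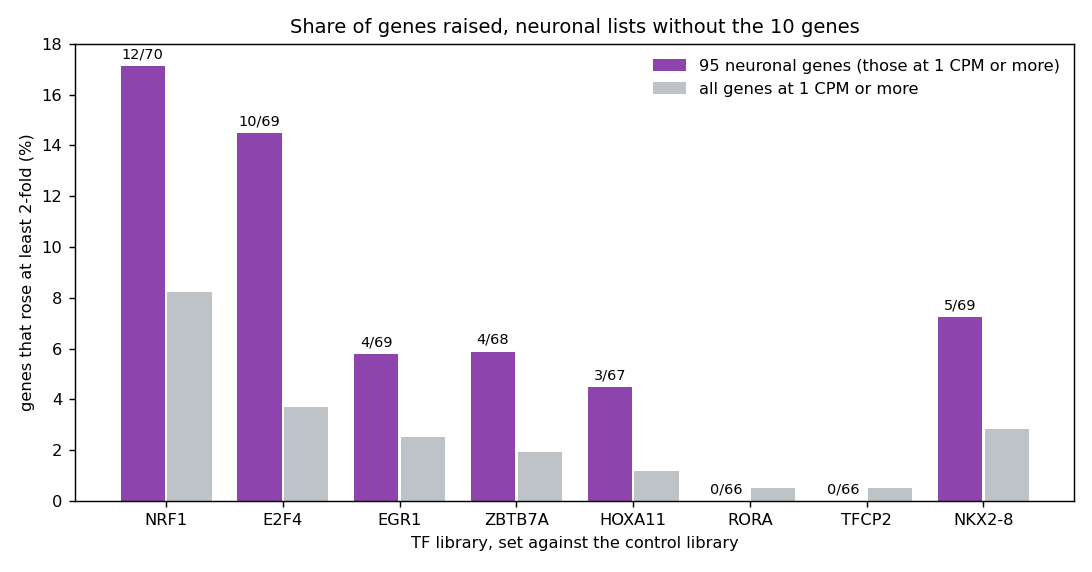
Share of genes that rose at least 2-fold over the control library, in percent, for the 95 listed neuronal genes without the 10 genes (purple, with the count that rose over the count at 1 CPM or more above each bar) and for all genes at 1 CPM or more (light grey), per TF library. The purple bar is above the grey one in 6 libraries, and no listed gene rose with RORA or TFCP2.

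None of 15 genes for REST and its corepressors was called in any TF library. REST had 31.6, 26.6, 26.1 and 22 CPM in the NRF1, E2F4, EGR1 and ZBTB7A libraries, 22.3, 22.8, 25.3 and 18.4 CPM in the HOXA11, RORA, TFCP2 and NKX2-8 libraries, and 26.7 CPM in the control library. It was lowest with NKX2-8, at 0.69 times the control library (0.593 to 0.8), and highest with NRF1, at 1.18 times (1.04 to 1.34). With EGR1 REST was at 0.976 times (0.854 to 1.11). A part of REST in the differences of the 10 genes was not tested, and its protein was not measured.

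Genes with the most similar profile were taken by the smallest root mean square difference of centred log2 CPM over the 9 libraries, among 12611 protein-coding genes at a mean of at least 1 CPM. For NEFH these were WNT7A (0.89), NTRK3 (0.95) and SLC32A1 (0.97), where the median gene was at 1.83. WNT7A had 72, 88, 44 and 26 counts in the NRF1, E2F4, EGR1 and ZBTB7A libraries, 13, 1, 4 and 10 in the HOXA11, RORA, TFCP2 and NKX2-8 libraries, and 1 in the control library. Like NEFH it was nearly absent with RORA and in the control library, but its highest level was with E2F4.

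For CPLX2 the nearest were CNR1 (0.74), NR5A1 (0.75) and CEMIP (0.80), with a median of 1.49, and CNR1 had 35, 43, 33 and 21 counts with NRF1, E2F4, EGR1 and ZBTB7A, 5, 9, 4 and 7 with HOXA11, RORA, TFCP2 and NKX2-8, and 6 in the control library. For SCRT1 they were GFRA2 (0.93), DIO3 (1.17) and ENTPD2 (1.20), with a median of 1.87, and GFRA2 had 12, 61, 92 and 33 counts with NRF1, E2F4, EGR1 and ZBTB7A, 15, 5, 8 and 7 with HOXA11, RORA, TFCP2 and NKX2-8, and 7 in the control library. With NKX2-8, where SCRT1 rose, GFRA2 had the same count as in the control library. SNAP25 was closest to ERFL (0.32), CHGA (0.38) and CCNA1 (0.42), with a median of 0.97. ERFL, the nearest, had 65, 14, 47 and 16 counts with NRF1, E2F4, EGR1 and ZBTB7A. With HOXA11, RORA, TFCP2 and NKX2-8 ERFL had 22, 19, 11 and 25, and 10 in the control library. CHGA, next in nearness, encodes the granule protein chromogranin A. CHGA had 67, 37, 90 and 28 counts with NRF1, E2F4, EGR1 and ZBTB7A. It had 30, 23, 26 and 45 with HOXA11, RORA, TFCP2 and NKX2-8, and 26 in the control library. Its 3 highest counts were in the libraries in which SNAP25 rose, which follows from its choice by nearness over the same libraries.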

How the data were processed

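The authors checked reads with FastQC 0.11.2, aligned them as pairs with STAR 2.6.0c on GRCh37, kept reads with a unique position and assigned them to genes with featureCounts 1.6.3. The deposited table gives these raw counts for 57163 genes in 9 columns, with the exon length that the authors deposited beside them. Whether strand was used when counting is not given in the sources read, so reads of a gene and an antisense partner may not be told apart. For RNA extraction the methods name a miRNeasy kit and the labels TRIzol. Columns left unused numbered 0.

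Symbols were matched for 35408 genes. Scaling factors by TMM (trimmed mean of M values) of 0.972 to 1.08 came from edgeR 4.0.16 under R 4.3.3, and log2FC used a prior count of 2. Ratios are of a TF library over the control, with 95% exact conditional binomial intervals, and no p is given since each condition has 1 library. Against a count of 0, bounds used a floor of 3 counts. The 4 CLB_TF and the 4 control TF libraries were compared with edgeR's quasi-likelihood test after filterByExpr, adjusted over all 15012 genes by Benjamini-Hochberg. The test was also run on simulated data, and the outcome is not given here. Its p-values measure the spread between libraries of different TFs, not between cultures.

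The 10 genes, the gene lists and the tests were chosen with earlier results of these data known. The text names all 10 genes, at most 3 called genes with the largest log2FC (prior count of 5) per list, REST, and for the genes that rose in at least 3 TF libraries the 3 genes with the nearest profile. A kidney line marker was named by the same rule. A marker of the glial list is not reported here and was left out of its sum. Other list genes, said to be so where they stand, were named after their values were seen. Levels were compared between genes per kilobase of the deposited exon length. Alternatives were other scalings (DESeq2 1.42.0), minimum levels, prior counts, a reference of control TF libraries and leaving out each TF library.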

Additional observations from a re-analysis of the deposited data

How the results depend on the processing

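Counting error limits these values, since the 4 genes that rose had 1 to 3 counts in a single control library. Library totals, DESeq2 size factors and prior counts of 0.5 or 5 gave the same counts of raised genes in each of the 8 TF libraries, and no called log2FC changed sign. Library totals moved the median log2FC of all genes to 0.13 with NRF1, and the log2FC of 5 of 80 pairs of gene and library by more than their counting interval. A prior count of 5 moved 3 pairs so far, to 4.25 and 3.97 for NEFH with NRF1 and EGR1 and 4.71 for SCRT1 with EGR1. Against the control TF libraries as reference 36 of 80 pairs moved so far, and the pairs that rose were 13, with 1 for E2F4 (SCRT1).

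The minimum level decided many calls. At 0.5 CPM 5 genes rose with NRF1 and 4 with E2F4. At 5 CPM 4 pairs remained, with 1 gene for NRF1, 0 for E2F4, 2 for EGR1, 1 for ZBTB7A, 0 for HOXA11 and 0 for NKX2-8. With no minimum there were 23 pairs, with 5 genes for NRF1, 4 for E2F4, 4 for ZBTB7A and 2 for HOXA11. A higher minimum leaves fewer pairs by its construction.

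Of the listed neuronal genes, the class contrast called 0, with DESeq2 1, without the filter on low counts 12, and 0 to 1 when each TF library was left out. Over all genes it called 6, with DESeq2 154, without the filter 795, with library totals 1, and 0 to 60 with a library left out, the most without EGR1. Under these omissions the class log2FC was 2.94 to 4.07 for CPLX2, 2.41 to 4.16 for SCRT1 and 1.68 to 2.85 for NEFH. No paired analysis was possible because each condition has 1 library.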

Other observations

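The exons of 9 of the 10 genes overlap other genes of the table, all but 1 of them on the opposite strand. The antisense gene at NEFM had 37 to 77 counts per library and that at NEFL 5 to 22 counts, beside 4298 to 8987 counts of NEFM and 3790 to 6248 counts of NEFL. The other overlapping genes had 0 to 3 counts each, and for SCRT2, which itself had 0 to 12 counts, the gene on the same strand had 0 to 2. The longest overlaps were 1984 of the 3231 exon bases of INA and 1706 of the 4381 of NEFM. Their part in the levels per kilobase was not tested.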
